A study of Homo sapiens with 9 samples.

Results

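The genes described here are 47 that build, cross-link or cut the extracellular matrix or carry the TGF-beta signal, out of 20263 gene rows in the deposited count table. Their Ensembl identifiers were matched to symbols, the rows were taken by symbol, and all 47 were found. The matching used no measured value, but the members were chosen with earlier results of these data known. By role they are 5 fibrillar collagens, 7 network, beaded-filament and anchoring collagens, 2 collagen cross-linking enzymes, 6 proteoglycans, 7 adhesive and matricellular proteins, 7 metalloproteinases, 4 protease inhibitors, 2 genes of plasminogen activation, 5 TGF-beta ligands, receptors and inhibitor, and 2 transcription factors of the epithelial-mesenchymal transition. mRNA was sequenced from HaCaT, an immortalised keratinocyte line from human epidermis, in a study of how glabridin acts on the breakdown of melanosomes. The control group, titled Blank and labelled WT, held 3 libraries of cells with no agent named. The melanosome group held 3 libraries of HaCaT cells loaded with melanosomes, the pigment granules of melanocytes. The glabridin group held 3 libraries of cells that had melanosomes and also glabridin, an isoflavan of licorice root, so there was no group with glabridin and no melanosomes. The sources used here do not give the dose of glabridin, how long the cells were exposed, or where the melanosomes came from. All groups are the same cell line, and the labels do not say whether libraries of a group came from separate cultures, so a p-value covers the spread between these libraries and that spread may be technical.

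Epidermal keratinocytes rest on a basement membrane of type IV collagen, laminin, nidogen and the heparan sulfate proteoglycans perlecan and agrin, and type VII collagen anchors this sheet to the dermis. Metalloproteinases and the urokinase system cut the matrix, and TIMPs and serpins restrain them. TGF-beta is secreted in a latent form, signals through paired receptors to SMAD proteins, raises the transcription of many matrix genes, and induces SMAD7, which feeds back on its own receptors. In skin the fibrillar collagens, decorin and lumican are made mainly by dermal fibroblasts.

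Each library held between 39653425 and 46690787 deposited counts. Levels are CPM, a gene's share of its library's counts after TMM scaling of the library size, always given for replicates 1, 2 and 3 in that order, or as mean ± SD of 3 libraries. Levels of different genes are compared only on the deposited TPM scale, which allows for transcript length. Changes are log2 fold changes of the TMM-scaled counts with their standard error (SE), and a gene is called, and said to rise or fall, where edgeR's quasi-likelihood test gave a Benjamini-Hochberg adjusted p under 0.05 over the 13912 genes that passed the filter on low counts. The glabridin libraries stood further apart from each other than those of the other groups. The chi-square per gene between pairs of replicates was 3.19 to 5.42 among control libraries, 4.44 to 14.4 among melanosome libraries and 31.4 to 104 among glabridin libraries, of which replicates 2 and 3 lay furthest apart. All 15 keratinocyte markers held counts in every group. Their summed level was 15825 ± 59.6 CPM in control, 13263 ± 511 with melanosomes and 11821 ± 1344 with glabridin. Of 14 tested, 3 rose and 9 fell with melanosomes (21.4% and 64.3%, beside 29.5% and 33.0% of all tested genes). KRT5, of basal cells, was at 5202 ± 58.97, 3546 ± 169 and 2249 ± 354 CPM in these groups, and KRT16, of activated keratinocytes, at 4.13 ± 0.556, 10.9 ± 0.733 and 35.1 ± 2.91. The part of these shifts in the results below was not tested.

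Markers of melanocytes moved with the groups. All 22 on the list rose in the melanosome group, beside 29.5% of all tested genes, and 21 of them rose at least 2-fold. Their summed level ran from 203 to 214 CPM over the control libraries and from 3559 to 3686 over the melanosome libraries, and was 2614, 3987 and 2213 CPM in the glabridin libraries. Over the 22 markers the median log2 change with melanosomes was 9.85, far above the change of the sum, so the control sum was not spread evenly over them. ABCB5, KIT, OCA2, S100B, SLC24A5, TRPM1 and TYR held no counts in control. Markers of fibroblasts were mostly near the floor and went different ways. Of 14, 3 passed the filter, of which FBLN1 and FBN1 fell with melanosomes, and TWIST2 was called only with glabridin over control (log2 0.41 ± 0.11 SE, edgeR adjusted p = 0.00756). DPT held no counts in any library, and PDGFRA held 1, 2 and 7 counts over the control, melanosome and glabridin groups, PDGFRB 0, 2 and 4, and THY1 4, 2 and 2. PRRX1 held 0, 21 and 8 counts and TCF21 0, 11 and 5. The summed fibroblast level, nearly all of it FBLN1, lay between 148 and 154 CPM over the control libraries, 108 and 121 over the melanosome libraries, and 82.2 and 117 over the glabridin libraries. The part of melanocyte RNA in the results below was not tested. These are bulk samples, in which fewer cells of a type and less RNA per cell cannot be told apart.

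With melanosomes, 20 of the 41 members that passed the filter rose (48.8%), where 29.5% of all tested genes rose, and 13 fell (31.7%), where 33.0% of all tested genes fell. Of these 41 members, 13 were called and at least 2-fold higher and 6 at least 2-fold lower. Over all 13912 tested genes these numbers were 1923 and 811, a smaller share in both directions. The median log2 change was 0.19 over the members and -0.06 over all tested genes. When glabridin was added, 11 members rose against the melanosome group (26.8%, background 23.7%) and 9 fell (22.0%, background 20.2%), both shares near the background. Without scaling factors the split was 22 higher and 9 lower for melanosomes, and 7 higher and 12 lower for glabridin, as the median of all tested genes moved from -0.06 to 0.11 in the first comparison and from 0.01 to -0.17 in the second. The glabridin group against control had 21 members higher (51.2%, background 37.6%) and 12 lower (29.3%, background 32.7%). The 6 members that did not pass the filter, COL1A2, COL5A1, COL6A3, VCAN, MMP3 and MMP9, are given by their counts.

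**Figure D1:**
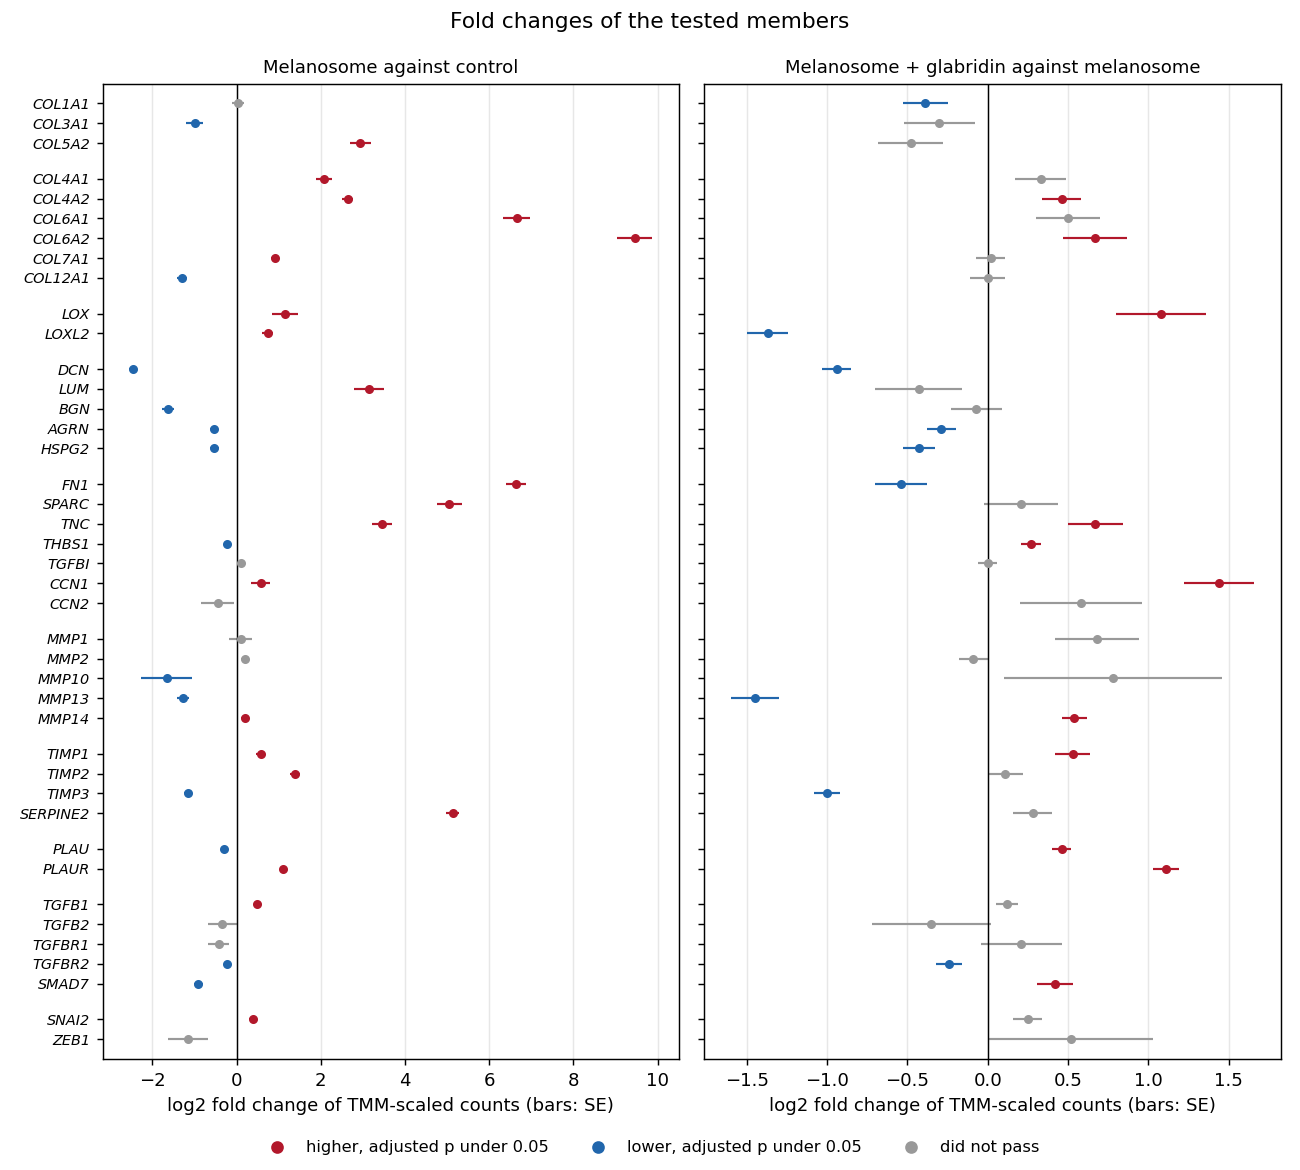
Log2 fold change of each of the 41 tested members with its SE, for melanosome against control (left) and for melanosome plus glabridin against melanosome (right); the axes differ in scale, and red and blue points had an adjusted p under 0.05. FN1, COL6A1 and COL6A2 have the 3 largest changes on the left; LOXL2, MMP13, CCN1, PLAUR and LOX have the largest on the right. The fitted point for COL6A2 on the left rests on 4 control counts and its size depends on the prior count.

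**Figure D2:**
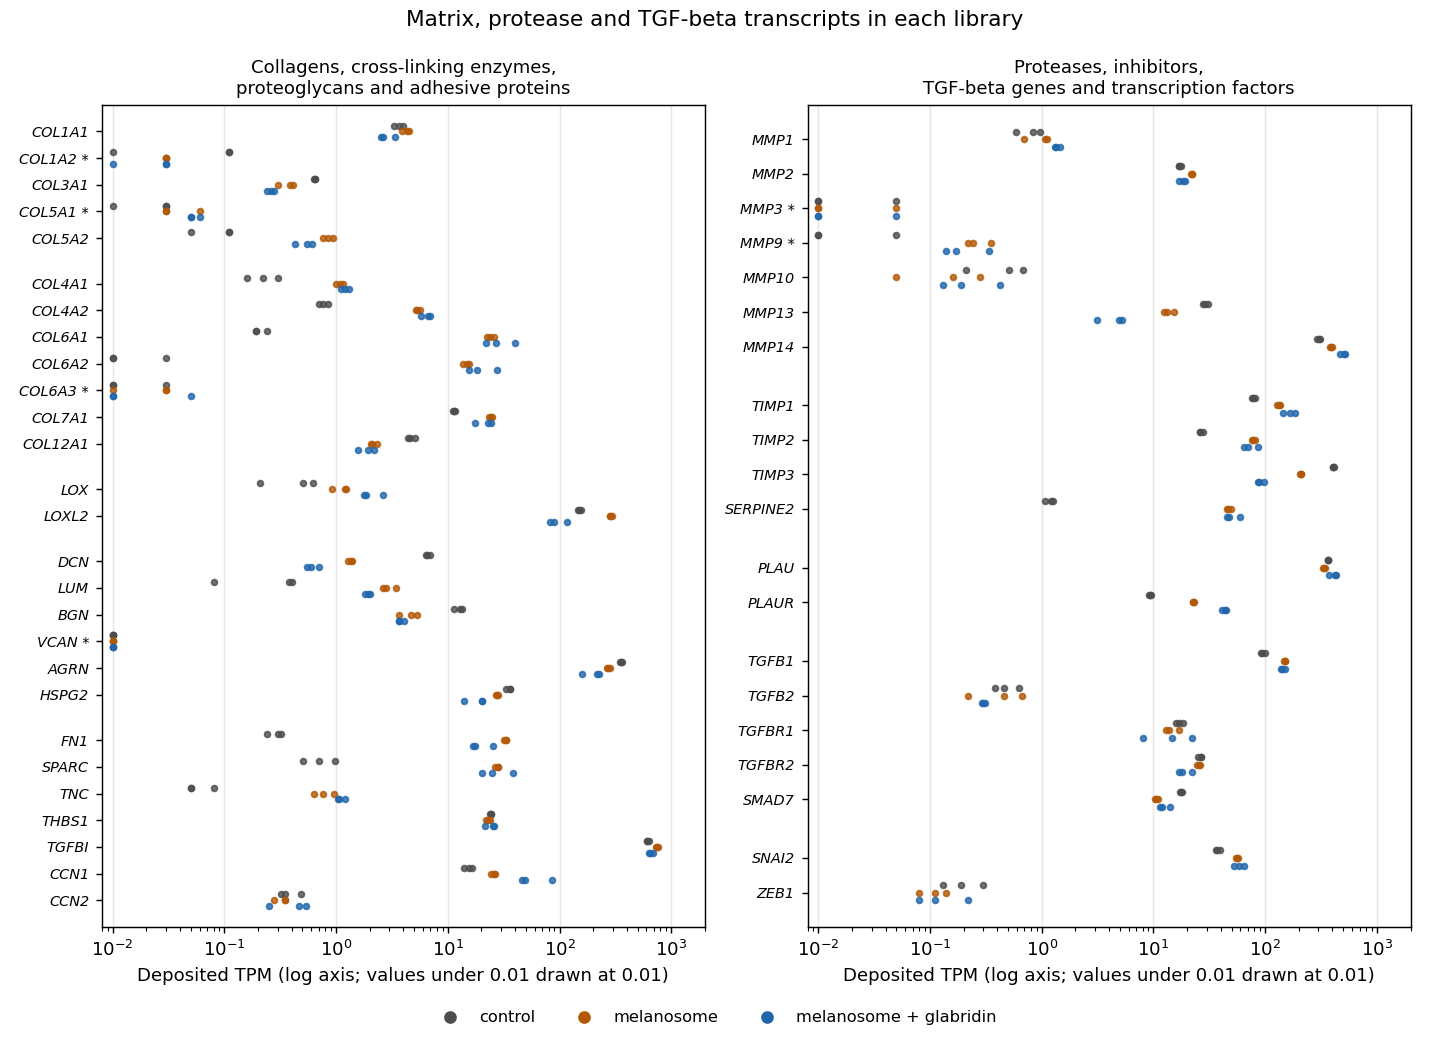
Deposited TPM of all 47 members in each of the 9 libraries on a log axis, with values under 0.01 drawn at 0.01 and an asterisk on the 6 members that did not pass the filter on low counts. TGFBI is the highest member in each group, and COL6A1, COL6A2, FN1, SPARC and SERPINE2 stand far lower in control than in the other groups.

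Short pieces of promoter are shown for 5 letter matches to a SMAD or AP-1 motif, so that the changes described below can be set beside the letters. These are the matches wholly before a RefSeq transcription start of a member called with melanosomes. Distances are to that RefSeq start. By the GENCODE spans given below, the pieces of PLAUR and TNC lie inside the gene. RefSeq promoter windows of 300 bases (250 before and 50 after a transcription start, GRCh38.p14) were at hand for 30 of the 47 members, in 51 windows. Each motif was searched on both strands, so a match may read as its reverse complement. The AP-1 heptamer TGAGTCA was in 4.95% of all 35116 windows and in windows of 2 members, PLAUR and TGFBR2. The SMAD box CAGACA was in 16.9% of all windows and in 9 of the 51 member windows, of 8 members. The ATF4 composite motif TGATGCAA was in 0.866% of all windows and in none of the members' windows. Matches to different motifs can share end bases, since AP-1 ends and the SMAD box begins with the letters CA, and a match only describes letters in these windows. The lines give 30 bases each, 5′ to 3′ on the gene's own minus strand with the match in capitals, first the piece of PLAUR at chr19:43670338-43670367, 186 bases before the start, then COL7A1 at chr3:48595410-48595439 (98 bases before), HSPG2 at chr1:21937464-21937493 (171), LOX at chr5:122078424-122078453 (182) and TNC at chr9:115118211-115118240 (71).
PLAUR: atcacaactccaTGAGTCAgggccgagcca
COL7A1: cgtcatatcgttTGTCTGggggaggggtgg
HSPG2: gggctgggggccCAGACAaaggcctagtag
LOX: ccctgtgcaacgTGTCTGgggggaggaggg
TNC: agtgggaaaggaTGTCTGgaggcgaggcgt
The 8 members that share the SMAD box letters did not move alike. With melanosomes the log2 change was 3.45 for TNC, 1.15 for LOX and 0.91 for COL7A1, but -0.53 for HSPG2 and -0.29 for PLAU. TGFB2 (-0.34), TGFBR1 (-0.42) and ZEB1 (-1.16) were not called.

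Fibrillar collagens, the rope-forming collagens of the dermis, were low in these keratinocytes and did not change together. Summed over the 5 genes they held 4.48 ± 0.311 TPM in control, 5.51 ± 0.240 in the melanosome group and 3.70 ± 0.390 in the glabridin group. COL5A2 (chr2:189031896-189225312), a chain of type V collagen, which nucleates fibrils, was at 0.321, 0.271 and 0.173 CPM in control, 2.11, 2.02 and 1.85 in the melanosome group and 1.17, 1.56 and 1.56 in the glabridin group. No library of control overlapped the others, and with melanosomes COL5A2 rose 7.69-fold (log2 2.94 ± 0.25 SE, edgeR adjusted p = 3.55e-06). Against the melanosome group its change with glabridin was -0.48 ± 0.20 (adjusted p = 0.0753), which passed without scaling factors (-0.66, adjusted p = 0.0203).

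COL3A1 (chr2:188974320-189012746), the type III collagen chain, lies 19.1 kb from COL5A2 on chromosome 2 on the opposite strand and went the other way with melanosomes. It fell from 1.37, 1.38 and 1.38 CPM in control to 0.717, 0.563 and 0.783 with melanosomes, a drop of 1.99-fold (log2 -1.0 ± 0.20 SE, edgeR adjusted p = 0.00172). COL1A1 (chr17:50183289-50201632), the main chain of type I collagen, was the highest of the 5 at 3.65 TPM in control. Its level was 9.85, 10.6 and 8.85 CPM in control, 8.82, 10.3 and 10.9 in the melanosome group (log2 change 0.03 ± 0.14 SE, edgeR adjusted p = 0.845) and 9.14, 7.11 and 6.68 in the glabridin group. The glabridin and melanosome ranges overlapped, and the change of -0.39 ± 0.14 (adjusted p = 0.0446) was lost without glabridin replicate 2 (-0.34, adjusted p = 0.0712), glabridin replicate 3 (-0.30, adjusted p = 0.0957), melanosome replicate 2 (-0.36, adjusted p = 0.12) or melanosome replicate 3 (-0.32, adjusted p = 0.148). It was also lost with the replicate block (adjusted p = 0.0684) and with only the melanosome and glabridin groups in the fit (-0.41, adjusted p = 0.0696).

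The other type I and type V chains were near the floor. COL1A2, which pairs with COL1A1 in type I collagen, held 9, 1 and 9 counts in the control libraries, 3, 2 and 2 in the melanosome libraries and 3, 3 and 1 in the glabridin libraries. COL5A1 held 0, 2 and 3 counts in control, 6, 4 and 2 with melanosomes and 8, 8 and 8 with glabridin, a ratio to control of 2.14 with melanosomes (exact 95% counting interval 0.701 to 7.75) and of 4.74 with glabridin (1.77 to 15.9).

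Among the network, beaded-filament and anchoring collagens, 5 of 6 tested members rose with melanosomes and 1 fell, beside 29.5% and 33.0% of all tested genes. Their summed level was 17.3 ± 0.541 TPM in control, 71.6 ± 3.07 in the melanosome group and 81.2 ± 12.0 in the glabridin group. The type VI collagen chains COL6A1 (chr21:45981737-46005050) and COL6A2 (chr21:46098097-46132849), which form beaded microfilaments, went from the floor to over 20 CPM. COL6A1 was at 0.412, 0.317 and 0.297 CPM in control, 33.4, 32.8 and 37.7 in the melanosome group and 44.2, 68.5 and 33.97 in the glabridin group. Its log2 change with melanosomes was 6.65 ± 0.31 SE (edgeR adjusted p = 4.18e-08). COL6A2 held 1, 2 and 1 counts in the control libraries, against 23.2, 22.8 and 25.8 CPM in the melanosome group and 33.7, 53.5 and 27.1 CPM in the glabridin group. From its counts the ratio to control was 770 with melanosomes (exact 95% counting interval 300.3 to 2826) and 1201 with glabridin (469 to 4408). The third chain, COL6A3, needed for the full type VI heterotrimer, held 2, 2 and 5 counts in control, 5, 3 and 0 with melanosomes and 8, 2 and 2 with glabridin.

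Glabridin replicate 2 was the highest and replicate 3 the lowest of the glabridin libraries for both genes. The summed melanocyte, keratinocyte and fibroblast markers all had this order of the glabridin libraries. The rise of COL6A2 over the melanosome group was 0.67 ± 0.20 SE (edgeR adjusted p = 0.0203). It was 0.34 without glabridin replicate 2 (adjusted p = 0.0152), and its call was lost without glabridin replicate 1 (0.67, adjusted p = 0.0572), when melanosome replicate 1 was left out (0.65, adjusted p = 0.0651), when melanosome replicate 2 was (0.63, adjusted p = 0.0685) and without scaling factors (0.48, adjusted p = 0.0648). The call of COL6A2 was also lost with only the melanosome and glabridin groups in the fit (0.64, adjusted p = 0.0569). COL6A1 changed by 0.50 ± 0.20 (adjusted p = 0.071), by 0.17 without glabridin replicate 2 (adjusted p = 0.209) and by 0.70 without glabridin replicate 3 (adjusted p = 0.00132).

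The basement membrane chains COL4A1 (chr13:110148963-110307233) and COL4A2 (chr13:110305812-110513209) both rose with melanosomes. They sit head to head on chromosome 13, with RefSeq starts 126 bases apart, and their GENCODE spans overlap by 1422 bases, so reads there could be given to either gene if strand was not used in counting. COL4A2 was at 1.92, 2.31 and 2.102 CPM in control, 13.3, 13.2 and 12.9 in the melanosome group and 18.4, 20.5 and 15.3 in the glabridin group. It rose 6.23-fold with melanosomes (log2 2.64 ± 0.13 SE, edgeR adjusted p = 6.31e-08) and again with glabridin (log2 0.46 ± 0.12 SE, adjusted p = 0.00878). The second rise was lost without glabridin replicate 1 (0.35, adjusted p = 0.0846) and without scaling factors (0.27, adjusted p = 0.0626). COL4A1 was at 0.871, 0.633 and 0.495 CPM in control, 2.93, 2.67 and 2.89 in the melanosome group and 3.57, 3.44 and 3.68 in the glabridin group, 4.22-fold up with melanosomes (edgeR adjusted p = 6.09e-06). The common type IV collagen trimer holds more of the COL4A1 chain than of COL4A2, while of the transcripts COL4A2 was the higher on the TPM scale, at 5.37 against 1.08 in the melanosome group.

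COL7A1 (chr3:48564073-48595267), the chain of the anchoring fibrils, was the highest collagen of the set in control, at 11.4 TPM. It rose from 40.8, 41.4 and 40.97 CPM to 74.6, 76.2 and 80.9 with melanosomes (1.88-fold, edgeR adjusted p = 7.82e-06) and stood at 83.8, 67.5 and 84.2 with glabridin, a further change of 0.02 ± 0.09 (adjusted p = 0.84). COL12A1, which decorates the surface of collagen fibrils, was the member of this group that fell. It went from 20.9, 23.8 and 21.5 CPM to 8.41, 9.73 and 8.71 with melanosomes (2.47-fold lower, edgeR adjusted p = 3.27e-06) and was at 9.11, 7.84 and 9.83 with glabridin.

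The 2 cross-linking enzymes, which oxidise lysines of collagen and elastin, both rose with melanosomes and then parted with glabridin. LOXL2 was at 236, 244 and 238 CPM in control, 383, 399.6 and 419 in the melanosome group and 141, 197 and 126 in the glabridin group. No 2 groups overlapped. It rose 1.67-fold with melanosomes (log2 0.74 ± 0.13 SE, edgeR adjusted p = 0.000707) and was 2.59-fold lower with glabridin than without it (log2 -1.37 ± 0.13 SE, adjusted p = 2.1e-05), which put it under control as well (log2 -0.63 ± 0.13 SE, adjusted p = 0.00142). LOX (chr5:122063195-122078360) went the other way, from 0.412, 1.24 and 1.04 CPM in control to 2.07, 1.67 and 2.21 in the melanosome group and 3.57, 3.92 and 5.08 in the glabridin group. Its first step was 1.15 ± 0.32 (edgeR adjusted p = 0.0093) and its second 1.08 ± 0.28 (adjusted p = 0.00959). LOXL2 was by far the more abundant, at 285 against 1.12 TPM in the melanosome group, so the summed level of both enzymes went from 151 ± 3.93 TPM in control to 286 ± 6.77 and then 98.3 ± 17.9.

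Proteoglycans, core proteins that carry glycosaminoglycan chains, mostly fell. With melanosomes 4 of 5 tested members fell and 1 rose, beside 33.0% and 29.5% of all tested genes, and with glabridin 3 fell further, beside 20.2%. Their summed level was 409 ± 9.43 TPM in control, 312 ± 10.2 in the melanosome group and 224 ± 39.1 in the glabridin group. AGRN (chr1:1020123-1056118), agrin, made up most of it and was at 1068, 1084 and 1108 CPM in control, 699.9, 754 and 788 in the melanosome group and 689, 516 and 628 in the glabridin group. It fell by 0.54 ± 0.09 SE with melanosomes (edgeR adjusted p = 0.000578). The further fall of 0.29 ± 0.09 with glabridin (adjusted p = 0.0273) was lost without melanosome replicate 2 (-0.28, adjusted p = 0.0768) or replicate 3 (-0.25, adjusted p = 0.1). It was also lost with only the melanosome and glabridin groups in the fit (-0.32, adjusted p = 0.0534). HSPG2, perlecan, followed it, from 190.1, 203 and 200.0 CPM in control to 128, 139.9 and 142 in the melanosome group and 113, 82.4 and 109 in the glabridin group (edgeR adjusted p = 0.00128 and 0.00688 for these steps).

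The small leucine-rich proteoglycans bind and space collagen fibrils, and 2 of them lie side by side. DCN (chr12:91140484-91183123), decorin, which also binds TGF-beta, was at 31.3, 33.4 and 31.3 CPM in control, 5.75, 5.91 and 5.64 in the melanosome group and 2.94, 2.89 and 3.198 in the glabridin group. It fell at both steps with no overlap between groups, 5.55-fold with melanosomes (log2 -2.47 ± 0.09 SE, edgeR adjusted p = 7.02e-09) and 1.91-fold more with glabridin (log2 -0.94 ± 0.09 SE, adjusted p = 2.35e-05). That left DCN 10.6-fold under control. LUM (chr12:91102629-91111831), lumican, 28.7 kb from DCN on the same strand of chromosome 12, rose with melanosomes, where DCN fell. It was at 0.481, 0.0904 and 0.445 CPM in control, 3.37, 2.72 and 2.89 in the melanosome group and 2.11, 2.46 and 2.12 in the glabridin group, a rise of 8.86-fold with melanosomes (log2 3.15 ± 0.35 SE, edgeR adjusted p = 2.26e-05). Its change with glabridin was -0.43 ± 0.27 SE (edgeR adjusted p = 0.229), which passed as a fall with limma on log2(TPM + 1) (adjusted p = 0.013). Every glabridin library lay under every melanosome library. BGN, biglycan, fell from 12.7, 12.01 and 10.6 CPM to 2.93, 4.503 and 3.97 with melanosomes (3.103-fold, edgeR adjusted p = 6.45e-06) and was at 3.48, 3.67 and 3.66 with glabridin. VCAN, versican, held 2 counts over each group of 3 libraries.

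**Figure D3:**
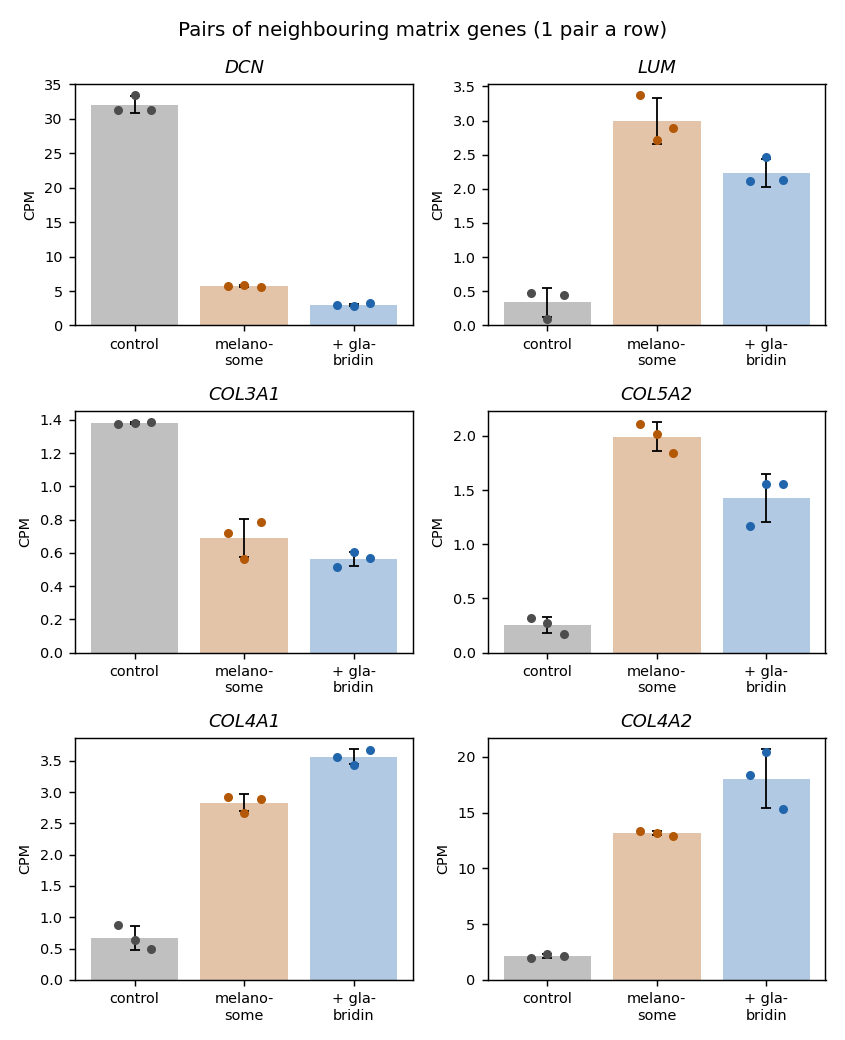
CPM of 3 pairs of neighbouring members, one pair to a row, in control, melanosome and melanosome plus glabridin libraries; points are libraries, bars the mean and whiskers the SD of 3. With melanosomes DCN and COL3A1 fall while their neighbours LUM and COL5A2 rise, and COL4A1 and COL4A2 rise together.

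Adhesive and matricellular proteins, which link cells to the matrix or tune that link, included 3 members that rose over 10-fold with melanosomes, FN1, SPARC and TNC. FN1 (chr2:215360440-215436172), fibronectin, was at 1.12, 0.859 and 1.06 CPM in control, 99.6, 101 and 105 in the melanosome group and 60.9, 93.4 and 56.1 in the glabridin group. It rose 99.9-fold with melanosomes (log2 6.64 ± 0.23 SE, edgeR adjusted p = 5.06e-09). SPARC (chr5:151661096-151687165), a collagen-binding glycoprotein, went from 1.12, 1.51 and 0.791 CPM to 37.6, 39.4 and 37.6 with melanosomes and 39.1, 63.4 and 30.4 with glabridin. Its rise with melanosomes was 33.2-fold (log2 5.05 ± 0.30 SE, edgeR adjusted p = 2.41e-07).

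With glabridin FN1 was lower than in the melanosome group (log2 -0.54 ± 0.16 SE, edgeR adjusted p = 0.0191), and every glabridin library lay under every melanosome library. The fall was 0.80 without glabridin replicate 2 on the log2 scale and was lost without glabridin replicate 1 (-0.53, adjusted p = 0.0574) or melanosome replicate 3 (-0.51, adjusted p = 0.0607). SPARC changed by 0.21 ± 0.23 (adjusted p = 0.482), with glabridin replicate 3 below and replicates 1 and 2 within or above the melanosome libraries, and by -0.14 without replicate 2. For both genes replicate 2 was the highest and replicate 3 the lowest glabridin library, again the order of all 3 marker sums.

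**Figure D4:**
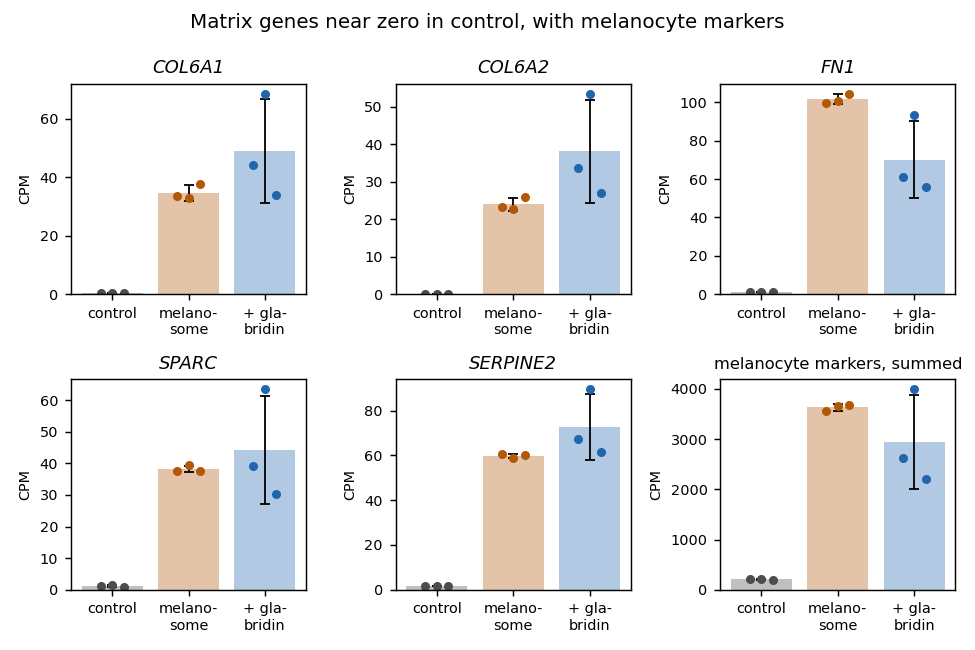
CPM in each library of COL6A1, COL6A2, FN1, SPARC and SERPINE2, with the summed CPM of the 22 melanocyte markers in the last panel; points are libraries, bars the mean and whiskers the SD of 3. All control values sit near the axis, and in the glabridin group replicate 2 (middle point) is the highest in every panel.

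TNC (chr9:115019578-115118257), tenascin-C, an adhesion-modulating glycoprotein of wounds, rose at both steps. It was at 0.183, 0.249 and 0.223 CPM in control, 1.92, 2.96 and 2.39 in the melanosome group and 3.704, 3.79 and 4.03 in the glabridin group, 10.9-fold up with melanosomes (edgeR adjusted p = 7.73e-07) and 0.67 ± 0.17 on the log2 scale with glabridin (adjusted p = 0.00876). CCN1, a matricellular protein induced by growth factors and by YAP, was at 12.4, 13.5 and 14.4 CPM in control, 19.7, 19.3 and 20.6 in the melanosome group and 43.7, 79.3 and 38.6 in the glabridin group. The glabridin rise was 2.71-fold (log2 1.44 ± 0.22 SE, edgeR adjusted p = 0.000482), and was 1.05 on the log2 scale without replicate 2, the highest. The smaller rise with melanosomes (0.57 ± 0.22, adjusted p = 0.0477) was lost whichever of the 6 libraries was left out, at adjusted p from 0.0763 to 0.128. Its relative CCN2 stayed under 1 CPM in every library and was not called in any comparison.

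TGFBI, named for its induction by TGF-beta, was the most abundant member, at 612 TPM in control, 745 in the melanosome group and 657 in the glabridin group. In CPM it was 837, 869 and 828 in control, 880.0, 901 and 939 with melanosomes and 942, 933 and 855 with glabridin, with log2 changes of 0.10 ± 0.06 SE (edgeR adjusted p = 0.134) and 0.00 ± 0.06 SE (adjusted p = 0.952). Its first change passed under other scalings (0.27 without scaling factors, adjusted p = 0.000451) and its second turned to -0.17 without them (adjusted p = 0.00872). THBS1, thrombospondin 1, an activator of latent TGF-beta, dipped from 73.98, 73.6 and 72.1 CPM to 62.3, 60.4 and 62.8 and returned to 77.5, 69.98 and 75.6 with glabridin. The fall of 0.24 ± 0.06 SE (edgeR adjusted p = 0.00489) and the rise of 0.27 ± 0.06 SE (adjusted p = 0.00468) were both lost without scaling factors (adjusted p = 0.314 and 0.277), and the rise also without glabridin replicate 1 (0.14, adjusted p = 0.108).

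Among the metalloproteinases, MMP14 and MMP13 moved in opposite directions. MMP14 (chr14:22836557-22849027), the membrane-bound collagenase that activates MMP2, was the most abundant metalloproteinase of the set, at 302 TPM in control. It was at 451, 468 and 461 CPM in control, 507, 524 and 547 in the melanosome group and 777, 844 and 678 in the glabridin group, with no overlap between groups. With glabridin it rose 1.46-fold (log2 0.54 ± 0.08 SE, edgeR adjusted p = 0.000238). The step with melanosomes was 0.19 ± 0.08 SE (adjusted p = 0.043) and was lost whichever library was left out, at adjusted p from 0.0515 to 0.133, and with the replicate block (adjusted p = 0.0629).

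MMP13 (chr11:102942995-102955734), collagenase 3, fell at each step, from 31.6, 33.5 and 29.97 CPM in control to 14.3, 12.1 and 13.05 with melanosomes and 5.68, 3.62 and 5.13 with glabridin. The groups did not overlap. The falls were 2.41-fold (log2 -1.27 ± 0.14 SE, edgeR adjusted p = 2.43e-05) and 2.73-fold (log2 -1.45 ± 0.15 SE, adjusted p = 3e-05), which left MMP13 6.57-fold under control. MMP2, gelatinase A and the substrate of MMP14, held 32.1, 33.1 and 31.9 CPM in control, 35.9, 37.3 and 37.3 in the melanosome group and 34.7, 38.5 and 30.8 in the glabridin group, with log2 changes of 0.19 ± 0.09 SE (edgeR adjusted p = 0.079) and -0.09 ± 0.09 SE (adjusted p = 0.437). The first passed as a rise in 7 of 16 alternative runs, among them RLE factors (0.25, adjusted p = 0.0358) and no scaling factors (0.35, adjusted p = 0.00247). The second passed as a fall without scaling factors (-0.27, adjusted p = 0.015).

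The other metalloproteinases were low. MMP9, gelatinase B, held 2, 0 and 0 counts in the control libraries, 9, 8 and 14 in the melanosome libraries and 5, 13 and 6 in the glabridin libraries, a ratio to control of 13.8 (exact 95% counting interval 3.51 to 119) and 11.8 (2.94 to 103). MMP10, stromelysin 2, held 6, 20 and 14 counts in the control libraries, 8, 4 and 2 in the melanosome libraries and 6, 4 and 12 in the glabridin libraries. Its fall with melanosomes (-1.66 ± 0.61, edgeR adjusted p = 0.036) rested on groups that overlap, and was lost without control replicate 2 (-1.28, adjusted p = 0.147), control replicate 3 (-1.58, adjusted p = 0.0867), melanosome replicate 2 (-1.64, adjusted p = 0.0844) or melanosome replicate 3 (-1.28, adjusted p = 0.124). MMP1, interstitial collagenase, was at 0.733, 0.633 and 0.445 CPM in control, 0.698, 0.469 and 0.763 in the melanosome group and 1.01, 1.06 and 1.05 in the glabridin group, where it was called against control (log2 0.78 ± 0.26 SE, adjusted p = 0.0217, 0.0821 without control replicate 3) and not against the melanosome group (adjusted p = 0.0535). MMP3, stromelysin 1, held 2 counts over each group. MMP10, MMP1, MMP3 and MMP13 lie in that order within a cluster on chromosome 11.

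Each of the 3 TIMPs, the secreted inhibitors of metalloproteinases, had its own course. TIMP3 (chr22:32801701-32863043), which binds to the matrix, fell at both steps. It was at 728, 728 and 711 CPM in control, 313, 329 and 326 in the melanosome group and 156, 182 and 146 in the glabridin group, 2.24-fold lower with melanosomes (log2 -1.16 ± 0.08 SE, edgeR adjusted p = 4.58e-07) and lower again with glabridin (log2 -1.0 ± 0.08 SE, adjusted p = 3.69e-06). TIMP1 rose at both, from 48.3, 46.2 and 45.05 CPM to 65.1, 71.3 and 70.3 and then 99.8, 116 and 81.9 (log2 0.57 ± 0.11 SE, edgeR adjusted p = 0.00119, and 0.53 ± 0.11 SE, adjusted p = 0.00271). TIMP2, which joins MMP14 in the activation of MMP2, went from 56.7, 60.2 and 55.9 CPM to 149, 152 and 149 with melanosomes (2.61-fold, edgeR adjusted p = 3.29e-06). With glabridin it was at 154, 198 and 134, a change of 0.11 ± 0.11 SE (adjusted p = 0.475, and 0.0463 without glabridin replicate 3). In TPM, TIMP3 was the highest of the 3 in control (409, against 78.6 for TIMP1 and 26.6 for TIMP2), and in the glabridin group TIMP1 was (166, against 90.7 and 74.1).

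The serpin SERPINE2 (chr2:223975112-224039319), protease nexin 1, which inhibits thrombin and urokinase, was at 1.56, 1.74 and 1.805 CPM in control, 60.5, 58.9 and 60.04 in the melanosome group and 67.4, 89.5 and 61.6 in the glabridin group. It rose 35.1-fold with melanosomes (log2 5.13 ± 0.16 SE, edgeR adjusted p = 2.37e-09). Its change with glabridin was 0.28 ± 0.12 SE (adjusted p = 0.0771), with replicate 2 the highest library, and 0.39 without glabridin replicate 3 (adjusted p = 0.00554).

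Urokinase and its receptor start plasminogen activation at the cell surface, and both were higher with glabridin than without it. PLAUR (chr19:43646095-43670547), the receptor, whose AP-1 letters are shown above, rose in equal steps. It was at 12.5, 11.9 and 12.6 CPM in control, 26.2, 26.9 and 26.96 in the melanosome group and 58.1, 62.3 and 52.00 in the glabridin group, 2.16-fold with melanosomes (log2 1.11 ± 0.08 SE, edgeR adjusted p = 1.24e-06) and 2.16-fold with glabridin (log2 1.11 ± 0.08 SE, adjusted p = 2.76e-06). PLAU, urokinase itself, dipped from 394, 389.6 and 391 CPM in control to 305, 331 and 326 with melanosomes and rose to 469, 424 and 428 with glabridin. The fall of 0.29 ± 0.06 SE (edgeR adjusted p = 0.00139) was lost without scaling factors (-0.12, adjusted p = 0.0626). The rise of 0.46 ± 0.06 SE (adjusted p = 0.000116) kept its call under every alternative run.

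**Figure D5:**
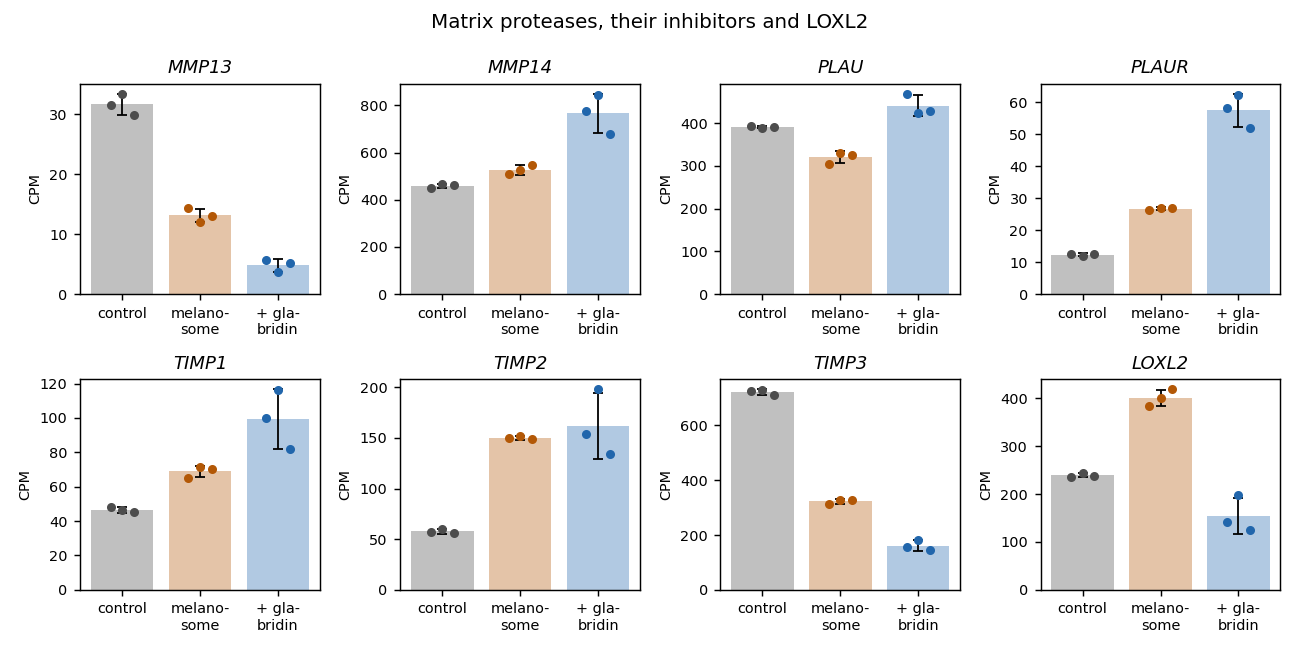
CPM in each library of 2 metalloproteinases, urokinase and its receptor, 3 TIMPs and LOXL2, in control, melanosome and melanosome plus glabridin; points are libraries, bars the mean and whiskers the SD of 3. MMP13 and TIMP3 step down and PLAUR and TIMP1 step up through the 3 groups, while LOXL2 is highest in the melanosome group and lowest with glabridin.

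Of the 5 TGF-beta ligands, receptors and inhibitor, 1 rose and 2 fell with melanosomes, beside 29.5% and 33.0% of all tested genes, and 1 rose and 1 fell with glabridin, beside 23.7% and 20.2%. TGFB1 (chr19:41301587-41353911), a TGF-beta ligand at 94.9 TPM in control, was at 111, 115 and 106 CPM in control, 150.4, 154 and 159 in the melanosome group and 164, 186 and 152 in the glabridin group. It rose 1.400-fold with melanosomes (log2 0.49 ± 0.08 SE, edgeR adjusted p = 0.000272) and changed by 0.12 ± 0.07 SE with glabridin (adjusted p = 0.23, and 0.0396 without glabridin replicate 3). TGFB2 was under 1 CPM on average in each group and was not called. SMAD7 (chr18:48919853-48952052), the inhibitory SMAD, fell while the ligand rose, from 22.9, 21.8 and 21.4 CPM in control to 11.4, 12.2 and 11.6 with melanosomes (1.88-fold, log2 -0.91 ± 0.11 SE, edgeR adjusted p = 4.84e-05). With glabridin it was at 14.4, 18.5 and 14.2, still below control and 0.42 ± 0.11 SE above the melanosome group (adjusted p = 0.0106), a rise lost without scaling factors (0.24, adjusted p = 0.0775).

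Changes of the receptors were small at either step, and their calls at these steps depended on the libraries in the fit. TGFBR2, which binds the ligand, was at 48.3, 45.1 and 48.02 CPM in control, 40.3, 39.8 and 41.3 in the melanosome group and 32.7, 32.3 and 37.9 in the glabridin group. Its steps of -0.22 ± 0.08 SE (edgeR adjusted p = 0.0296) and -0.24 ± 0.08 SE (adjusted p = 0.0292) each lost their call when a library was left out. The first was lost without control replicate 1 or 3 or any melanosome replicate (adjusted p from 0.0586 to 0.097) and without scaling factors (-0.05, adjusted p = 0.608), and the second without any melanosome replicate (adjusted p from 0.0667 to 0.0887). The second was also lost with only the melanosome and glabridin groups in the fit (-0.27, adjusted p = 0.0504). From control to the glabridin group TGFBR2 fell (log2 -0.46 ± 0.08 SE, edgeR adjusted p = 0.000345), and this call held in all 16 alternatives. TGFBR1, the signalling receptor kinase, was at 44.7, 41.7 and 47.8 CPM in control, 37.7, 32.2 and 30.6 in the melanosome group and 38.4, 22.2 and 55.3 in the glabridin group, where replicates 2 and 3 lay at the ends of the range. TGFBR1 was not called with melanosomes or with glabridin (adjusted p = 0.162 and 0.525). Every melanosome library lay under every control library, and with only these groups in the fit it passed as a fall (-0.33, adjusted p = 0.00258). It passed as a rise over the melanosome group without glabridin replicate 2 (0.49, adjusted p = 0.00954).

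Of the transcription factors that drive the epithelial-mesenchymal transition, SNAI2, present in basal keratinocytes, was at 31.98, 32.98 and 30.4 CPM in control, 41.1, 42.4 and 41.8 in the melanosome group and 44.96, 57.4 and 46.5 in the glabridin group. It rose with melanosomes (log2 0.39 ± 0.09 SE, edgeR adjusted p = 0.0042) and changed by 0.25 ± 0.09 SE with glabridin (adjusted p = 0.0507, and 0.0193 without glabridin replicate 3). ZEB1 was near the floor, at 0.536 ± 0.238 CPM in control, 0.241 ± 0.0867 in the melanosome group and 0.339 ± 0.184 in the glabridin group, and was not called (adjusted p = 0.0575 with melanosomes, and 0.0353 without control replicate 1).

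Other genes of the same pathways were read from lists of collagen processing, further matrix proteases and inhibitors, TGF-beta signalling and TGF-beta response. Of 30 tested collagen processing genes, 16 rose and 3 fell with melanosomes (53.3% and 10%, beside 29.5% and 33.0% of all tested genes), and 12 rose and 3 fell with glabridin (40% and 10%, beside 23.7% and 20.2%). FKBP10, a collagen chaperone of the endoplasmic reticulum, went from 0.0836 ± 0.0804 CPM in control to 46.99 ± 3.89 with melanosomes and 85.04 ± 25.9 with glabridin. ADAMTS2, which removes the amino-terminal propeptide of procollagen, rose with melanosomes by 3.57 ± 0.28 SE (edgeR adjusted p = 1.64e-06). The largest glabridin rises of this list were those of SEC24D, a COPII coat subunit needed for procollagen export (1.80 ± 0.11 SE, adjusted p = 8.03e-07), and P4HB, a subunit of prolyl 4-hydroxylase (1.16 ± 0.06 SE, adjusted p = 2.57e-07).

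Of 32 other tested proteases and inhibitors, 11 rose and 11 fell with melanosomes (34.4% each, near the 29.5% and 33.0% of all tested genes), and 5 rose and 5 fell with glabridin (15.6% each, beside 23.7% and 20.2%). HTRA1, a secreted serine protease, and CTSK, the collagen-cutting cathepsin K, rose with melanosomes by 7.62 ± 0.41 and 2.38 ± 0.22 SE (edgeR adjusted p = 1.04e-07 and 6.95e-06). HTRA1 held 5 counts over the control group and 1184 over the melanosome group, so the size of its change rests on few control counts. MMP7, matrilysin, rose with melanosomes by 1.74 ± 0.10 and fell with glabridin by 1.15 ± 0.10 SE (adjusted p = 1.48e-07 and 6.98e-06).

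Of 34 tested TGF-beta signalling genes, 10 rose and 13 fell with melanosomes (29.4% and 38.2%, near the 29.5% and 33.0% of all tested genes), and 11 rose and 7 fell with glabridin (32.4% and 20.6%, beside 23.7% and 20.2%). BAMBI, a decoy receptor that dampens TGF-beta signalling, went from 0.687 ± 0.255 CPM in control to 81.5 ± 1.64 with melanosomes and 165 ± 47.6 with glabridin (edgeR adjusted p = 1.24e-08 and 0.00115). ITGB8, a chain of the integrin that activates latent TGF-beta, fell with melanosomes by 1.34 ± 0.21 SE (adjusted p = 0.000278), and SMAD6, the inhibitory SMAD of the BMP branch, fell with glabridin by 0.89 ± 0.13 SE (adjusted p = 0.000287).

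Of 30 tested TGF-beta response genes, 15 rose and 10 fell with melanosomes (50% and 33.3%, beside 29.5% and 33.0% of all tested genes), and 10 rose and 9 fell with glabridin (33.3% and 30%, beside 23.7% and 20.2%). VIM, vimentin, an intermediate filament protein of mesenchymal cells and also of melanocytes, went from 0.182 ± 0.0908 CPM in control to 641 ± 19.1 with melanosomes and 571 ± 142 with glabridin, and NOX4, an NADPH oxidase, from 0.0153 ± 0.0265 to 15.7 ± 0.750 and 11.04 ± 1.97. Like BAMBI and FKBP10 above, both rose beside the melanocyte markers, and the part of melanocyte RNA in these rises was not tested. BHLHE40, a stress-responsive repressor, and CDKN1A, the cell-cycle inhibitor p21, rose with glabridin by 1.79 ± 0.08 and 1.63 ± 0.06 SE (edgeR adjusted p = 1.19e-07 and 3.09e-08), the largest rises of that list among genes with a mean log2 CPM of at least 1. The low-count SNAI1, a transcription factor of the epithelial-mesenchymal transition, rose more, by 2.36 ± 0.54 SE (adjusted p = 0.00532).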

How the data were processed

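Poly(A) RNA had been turned into dUTP, strand-specific libraries for paired-end reading, per the labels' protocols. The authors deposited raw counts per gene, with TPM and FPKM for the same genes, per the file headers; a second deposited TPM table held the same values. FPKM was not used. The genome build was hg38, per the submitters' processing notes. The sources used here do not give the aligner, the counting program, the strand setting or the annotation.

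Groups were taken from sample titles. Of 20263 identifiers, 20148 had a symbol. The test on counts was that of edgeR 4.0.16 in R 4.3.3 (quasi-likelihood, TMM factors, filterByExpr by group, no replicate block), with all 9 libraries in 1 fit and Benjamini-Hochberg adjustment over 13912 genes. All groups shared 1 estimate of the spread, so the glabridin libraries also entered the test of melanosomes against control. The SE was derived from the F statistic. Among counts from 1 to 49, 69.9% to 72.2% were even, against 48.7% to 51.1% of counts over 500. Counting both reads of a pair would give this, but that is not given, and if so the counting intervals are too narrow. Those intervals cover counting error only. Replicate numbers did not pair libraries (same-number correlations from -0.383 to 0.0997). Gene positions are from GENCODE 29 on GRCh38 and promoter letters from RefSeq. Scripts were tested on simulated data.

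The members and the gene lists were chosen with earlier results of these data known, so counts over them are descriptions. The naming rule gave in full, in each role, the members with the largest called change in each of the first 2 comparisons and the highest mean TPM; from each other list it took the 2 largest called changes per comparison at a mean log2 CPM of at least 1, and genes that did not meet it were added as members or markers. The list counts include 1 gene taken by the rule whose values are not reported here. Alternatives were RLE, upper-quartile or no factors, no filter, DESeq2 1.42.0, limma 3.58.1 on log2(TPM + 1) or log2(TPM + 0.1), only the groups compared, a replicate block, each library left out, and removal of melanocyte markers and the 199 genes lacking in control.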

Additional observations from a re-analysis of the deposited data

How the results depend on the processing

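Over the settings run, all 6 counts of called members stayed within 1.5 times their value, with these exceptions. The 11 members higher with glabridin than with melanosomes became 7 without scaling factors, 7 with limma on log2(TPM + 1) and 6 with limma on log2(TPM + 0.1); COL4A2, COL6A2, SMAD7 and THBS1 lost their call in each, and TNC in the last. The 9 members lower with glabridin ranged from 5 to 8 when a library was left out, with 5 without melanosome replicate 3. The change of TGFBI with glabridin, which was not called, turned to -0.17 without scaling factors and to -0.18 with limma at either pseudocount. The cause was not tested. With the replicate block 19 members rose with melanosomes, 11 with glabridin over melanosomes and 20 with glabridin over control; MMP10, MMP14, COL1A1 and PLAU (over control) lost a call and ZEB1 gained one, and no other member's call changed. With only the groups compared in the fit, 6 members were lower with glabridin than with melanosomes, as AGRN, COL1A1 and TGFBR2 lost their call. COL6A2 lost its rise there. For melanosomes against control this setting gained rises of TGFBI and MMP2 and falls of TGFBR1 and ZEB1, and lost the fall of MMP10. Removing the melanocyte markers and the genes lacking in control also removed COL6A2, and the 40 tested members that remain kept every call in all 3 comparisons. That run left the counts of each remaining member as they were, so it cannot show the part of melanocyte RNA in them. Members under about 1 CPM, such as ZEB1, CCN2 and TGFB2, hold few counts, and a change in them may not be detectable at this depth.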
